A study of Rattus norvegicus with 48 samples.

Results

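Interneuron marker genes were followed through 4 brain areas of adult male rats: the neuropeptide genes Sst, Npy, Vip and Cck, the calcium-binding protein genes Pvalb and Calb2, the GABA-synthesising enzyme genes Gad1 and Gad2, and the somatostatin receptor gene Sstr2. Members were taken by gene symbol, with the brightest probe set where a gene has several. All 9 were found, each with 1 probe set that carries a single symbol, among 14324 distinct symbols and 27342 probe sets on the array.

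The animals were outbred Sprague-Dawley males of the F3 generation, killed on postnatal day 120. In the vinclozolin lineage (Vin), the founding mothers had received this antiandrogenic fungicide at 100 mg/kg/day from embryonic day 8 to 14. In the control lineage (Con), they had received the solvent DMSO. Stressed rats (St) were restrained for 6 h a day on 21 days, postnatal days 23 to 43, and non-stressed rats (NSt) were not. This gives the groups St-Vin, St-Con, NSt-Vin and NSt-Con, with 3 arrays each in basolateral amygdala (BLA), CA3 and CA1 of the hippocampus, and primary and secondary motor cortex (CRTX). Each Vin rat was caged with a Con rat as a dyad. Each array carries RNA pooled from 4 rats, the pools of 1 set of 4 dyads (a dyad group) supplied all 4 areas, and the tissue was a 2 mm punch. Dyad groups 1 to 3 are NSt and 4 to 6 are St, so a dyad group number joins a Vin and a Con pool of cage mates within 1 stress condition.

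Cortical and hippocampal interneurons are a minority of neurons that release GABA onto their neighbours. GAD67 (Gad1) and GAD65 (Gad2) make GABA from glutamate in essentially all of them, and also in the projection neurons of the striatum and central amygdala. Parvalbumin (Pvalb) marks fast-spiking basket and axo-axonic cells, which inhibit the soma and axon start of principal cells. Somatostatin (Sst) marks cells that inhibit dendrites, many of which also make neuropeptide Y (Npy). Vasoactive intestinal peptide (Vip) and calretinin (Calb2) mark cells that mostly inhibit other interneurons, while calretinin is also found in some excitatory cells. Cholecystokinin (Cck) is made by a class of basket cells and, at lower levels per cell, by many pyramidal cells. SSTR2 (Sstr2) is an inhibitory receptor for somatostatin, found on principal cells as well.

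Somatostatin transcription is a textbook case of control by cAMP through the palindromic element TGACGTCA, so the promoters were searched for it and for its 5-base arm TGACG, on both strands. Promoter windows of 300 bases around the annotated gene start (RefSeq, build GRCr8) were matched for 7 members, all but Cck and Calb2. The full element lay in the promoters of Sst and Sstr2, against 612 of 33469 promoters of the same length (1.83%). It begins at position 3 of the annotated Sst gene and at position -73 of Sstr2. The arm alone, which the full element holds once on each strand, was found in 7097 of the promoters (21.2%), among them those of Vip and Pvalb. No match lay in the windows of Npy, Gad1 and Gad2. Sst and Npy, whose values vary together in CA1, and the receptor gene Sstr2 are shown 5′ to 3′, with matches in capitals: Sst at chr11:90461296-90461595 (plus strand), Npy at chr4:80211861-80212160 (plus strand) and Sstr2 at chr10:99163103-99163402 (plus strand). A match describes the letters only.
Sst: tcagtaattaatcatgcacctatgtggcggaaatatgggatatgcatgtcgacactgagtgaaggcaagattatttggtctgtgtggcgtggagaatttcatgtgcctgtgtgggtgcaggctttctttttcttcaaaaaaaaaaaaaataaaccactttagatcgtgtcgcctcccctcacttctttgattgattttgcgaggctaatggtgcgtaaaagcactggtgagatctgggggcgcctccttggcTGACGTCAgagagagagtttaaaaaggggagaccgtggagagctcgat
Npy: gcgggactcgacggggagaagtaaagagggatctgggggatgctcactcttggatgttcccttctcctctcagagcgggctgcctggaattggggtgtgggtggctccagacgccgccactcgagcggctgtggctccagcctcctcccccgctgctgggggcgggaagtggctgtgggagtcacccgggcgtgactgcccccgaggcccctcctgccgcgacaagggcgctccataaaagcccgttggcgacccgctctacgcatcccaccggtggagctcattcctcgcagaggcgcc
Sstr2: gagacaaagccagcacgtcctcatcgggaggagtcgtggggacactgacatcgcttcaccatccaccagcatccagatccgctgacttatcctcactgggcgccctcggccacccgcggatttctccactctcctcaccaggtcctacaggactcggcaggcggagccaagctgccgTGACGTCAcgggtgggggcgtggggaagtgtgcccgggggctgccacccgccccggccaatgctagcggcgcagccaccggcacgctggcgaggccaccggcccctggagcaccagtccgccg

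Of the 48 arrays deposited, 46 were used. CRTX NSt-Vin 2 and CA1 St-Con 3 equal the mean of the other 2 arrays of their group on all 27342 probe sets, with a largest deviation of 0.005 on the log2 scale, whereas it is at least 0.935 in the other arrays. Their groups have n = 2. Array medians lay between 7.08 and 7.13 in BLA, 7.34 and 7.39 in CA3, 7.11 and 7.17 in CA1 and 6.76 and 6.81 in CRTX, so the areas appear to have been normalized apart. A difference between areas was therefore called only where it passed on the values as deposited and after quantile normalization of all arrays, with the same sign. Neighbouring tissue varied between punches. The mean log2 signal of 16 choroid plexus genes lay more than 0.6 above its area mean in 5 arrays. A list of 6 CA1 pyramidal genes did not set the CA1 punches (7.89 to 8.65) above those of CA3 (8.42 to 9.07). The list for CA3 and CA2 pyramidal cells spanned 8.89 to 9.13 in CA3 and 7.98 to 9.17 in CA1, so the ranges overlapped. Both lists were compared as deposited alone, where the array medians of CA3 lie above those of CA1. In such pieces of tissue, fewer cells of a type and less RNA per cell cannot be told apart.

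Signal differed widely between the members' probe sets, which sets the room for a difference to show. The Vip probe set averaged 5.91 (log2 signal, 46 arrays), at the 21.1 percentile of all probe sets. The other members lay between the 47.0 percentile (Calb2) and the 96.2 percentile (Cck). Every value of Vip fell between 5.40 and 6.28, so its differences come from a narrow range near the bottom of the scale.

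**Figure D1:**
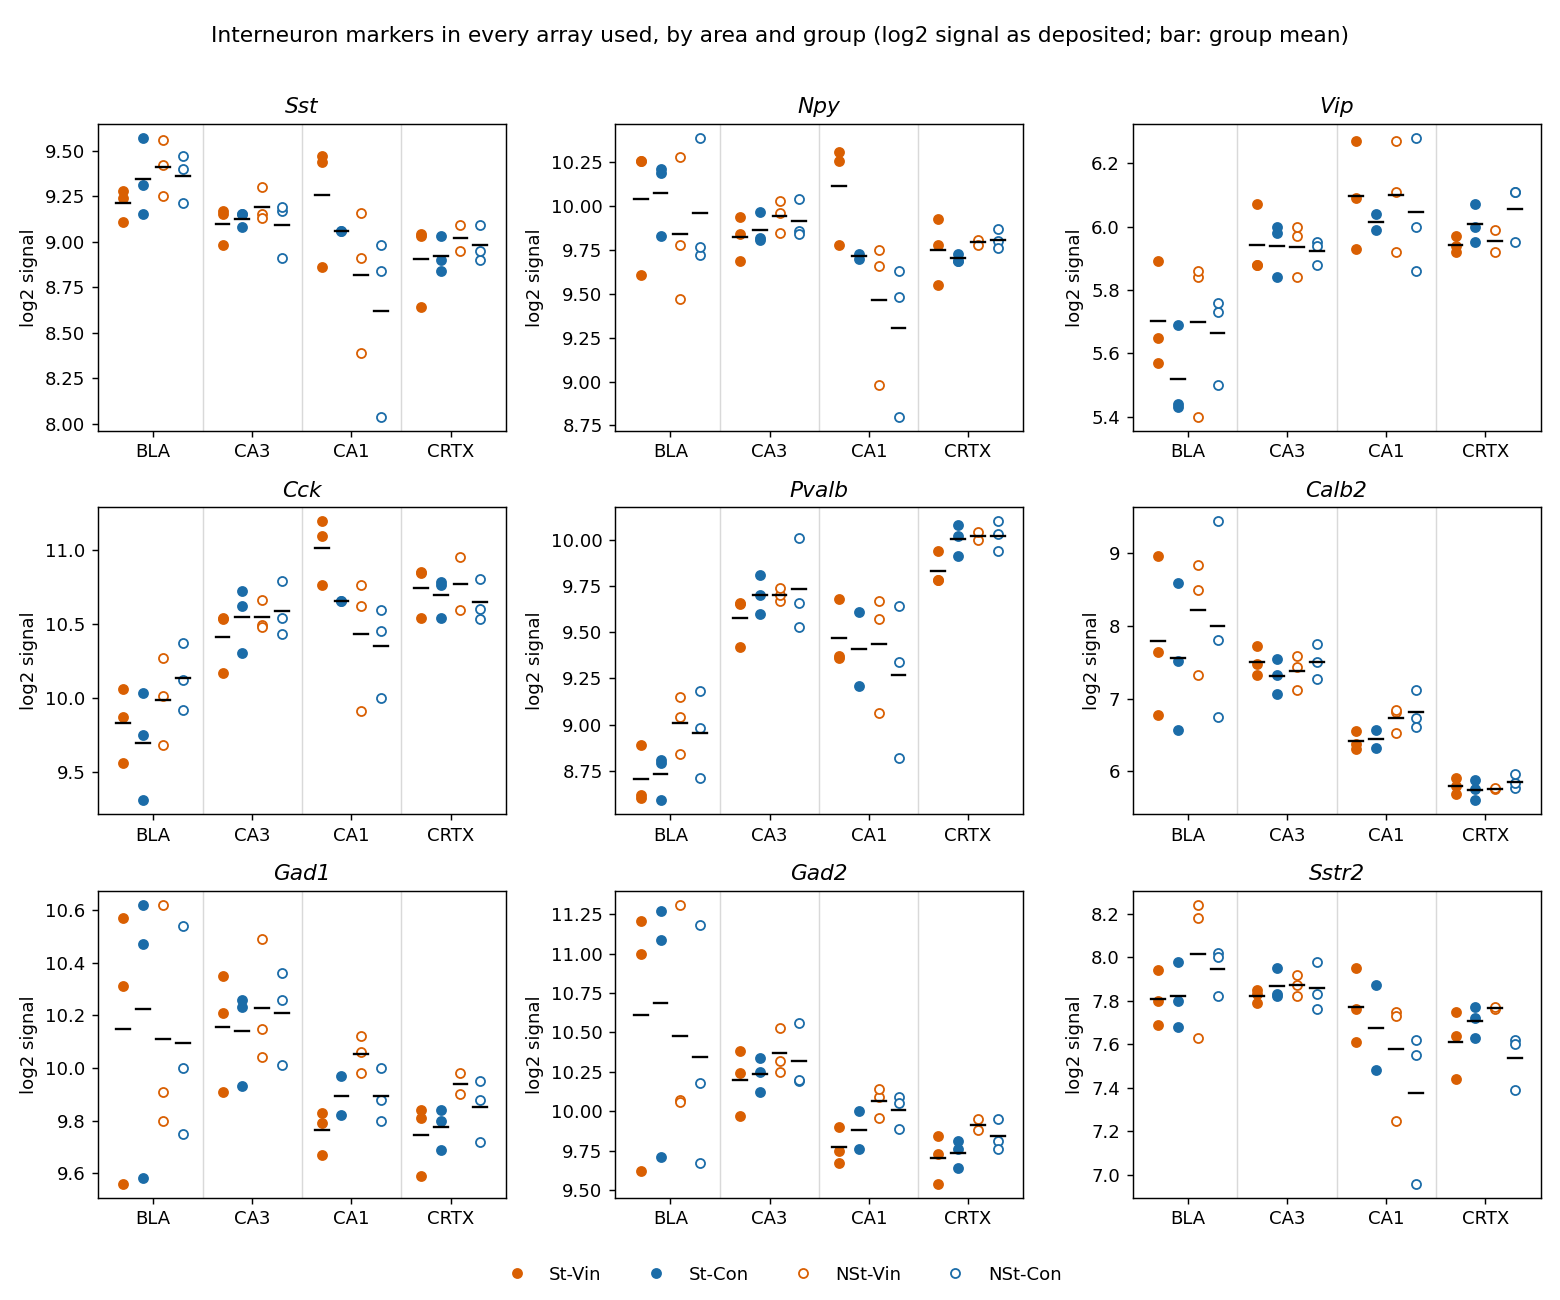
Log2 signal as deposited (vertical axis) of the 9 genes in every array used, by area and group (St-Vin, St-Con, NSt-Vin, NSt-Con from left to right; filled for St, open for NSt; bars are group means). Calb2 stays at or below 5.96 in all CRTX arrays, Gad2 in BLA runs from 9.62 to 11.31, and Sst in CA1 from 8.04 to 9.47.

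The areas differed in which interneuron markers were strong. BLA stood out from CRTX by more Calb2, Gad2, Sst, Gad1 and Npy and by less Pvalb, Cck and Vip. All 8 passed on both scales with limma (pool as a random block, Benjamini-Hochberg over all probe sets, threshold 0.05), as did 14694 of the 27342 probe sets (53.7%). Against CA1, BLA was higher in 6 members and lower in 3, so all 9 passed, beside 56.3% of all probe sets. Against CA3 it was higher in Calb2 and Sst and lower in Pvalb (44.9% of all probe sets passed). Fewer members separated the other areas: Pvalb was lower in CA1 than in CRTX (36.3%), Calb2 was higher and Pvalb lower in CA3 than in CRTX (37.9%), and Calb2 was higher and Vip lower in CA3 than in CA1 (38.4%). When single pools were left out, BLA minus CA3 kept 1 to 3 calls (1 without St-Con 2) and CA3 minus CA1 kept 0 to 2. With such shares of all probe sets past the threshold, the number of members is not particular to them, and their directions are the content.

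Calb2, the calretinin gene, had the largest range. Its log2 signal ran from 6.57 to 9.44 (median 7.72) in the 12 BLA arrays, from 7.06 to 7.75 (median 7.46) in the 12 CA3 arrays, from 6.31 to 7.12 (median 6.57) in the 11 CA1 arrays and from 5.60 to 5.96 (median 5.77) in the 11 CRTX arrays. The highest CRTX array was thus below the lowest array of each other area on the values as deposited, where CRTX also has the lowest array medians. How many of all probe sets separate CRTX in this way was not counted. BLA minus CRTX was 2.10 ± 0.22 as deposited and 1.91 ± 0.25 after quantile normalization (SE, adjusted p = 2.1e-08 or smaller on both). CA3 exceeded CRTX by 1.64 ± 0.22 and 1.09 ± 0.25 on these scales, and CA1 by 0.82 ± 0.22 and 0.59 ± 0.25. CA1 minus CRTX, 0.81 ± 0.23 as deposited, was 0.50 ± 0.25 after quantile normalization (adjusted p = 0.0851) and was not called.

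Pvalb was lowest in BLA and highest in CRTX. Its signal lay between 8.59 and 9.18 (median 8.83) in BLA, 9.42 and 10.01 (median 9.67) in CA3, 8.82 and 9.68 (median 9.37) in CA1 and 9.78 and 10.10 (median 10.00) in CRTX. No BLA array reached the lowest CRTX array, and how many of all probe sets separate these areas was not counted. BLA was lower than CRTX by a log2 difference of -1.12 ± 0.078, than CA3 by -0.83 ± 0.076 and than CA1 by -0.55 ± 0.078. CA1 minus CRTX was -0.58 ± 0.080 and CA3 minus CRTX -0.29 ± 0.078, and all 5 held after quantile normalization. CA3 and CA1 could not be ordered, because their difference of 0.28 ± 0.078 became 0.036 ± 0.077 after quantile normalization.

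Among the peptides, Sst was highest in BLA. It lay between 9.11 and 9.57 (median 9.30) there, 8.91 and 9.30 in CA3, 8.04 and 9.47 in CA1 and 8.64 and 9.09 in CRTX. Every BLA array thus exceeded every CRTX array as deposited, where array medians are also higher in BLA. The share of all probe sets for which this held was not counted. BLA minus CA3 was 0.20 ± 0.082, BLA minus CA1 0.39 ± 0.085 and BLA minus CRTX 0.37 ± 0.085 as deposited. Among CA3, CA1 and CRTX no Sst difference passed on both scales. Npy, often made in the same cells, was higher in BLA than in CRTX by 0.21 ± 0.099 (adjusted p = 0.0476, and 0.052 to 0.17 without NSt-Con 1, St-Con 1, St-Con 2, NSt-Vin 1, NSt-Vin 2, St-Vin 1 or St-Vin 2) and than in CA1 by 0.33 ± 0.099 (adjusted p = 0.00307). Cck was lower in BLA than in CRTX by -0.80 ± 0.097 and than in CA1 by -0.70 ± 0.097, with BLA arrays between 9.31 and 10.37 and CRTX arrays between 10.53 and 10.95. Vip was lower in BLA than in CRTX by -0.34 ± 0.056 and than in CA1 by -0.42 ± 0.056, and lower in CA3 than in CA1 by -0.13 ± 0.056. The receptor gene Sstr2 was higher in BLA than in CA1 by 0.30 ± 0.073, and BLA minus CRTX, 0.24 ± 0.073 as deposited, was 0.040 ± 0.076 after quantile normalization.

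Gad1 and Gad2, whose enzymes are shared by all GABA neurons of a punch, were higher in BLA than in CRTX by 0.32 ± 0.11 and 0.73 ± 0.17, and than in CA1 by 0.25 ± 0.11 and 0.60 ± 0.17. The BLA punches of dyad groups 1, 4 and 5 were rich in striatal transcripts, and leaving their arrays out was chosen after seeing the data. All 6 lay above the other BLA arrays in Gad1, Gad2 and Npy, and below them in Calb2, Cck, Vip and Sstr2. The direction in which these genes shift without them is thus fixed by the pick. Without these 6 BLA arrays, BLA minus CRTX was -0.10 ± 0.072 for Gad1, 0.035 ± 0.075 for Gad2 and -0.055 ± 0.10 for Npy, and BLA minus CA1 was -0.17 ± 0.072 for Gad1, -0.098 ± 0.075 for Gad2 and 0.062 ± 0.10 for Npy. None of these passed on both scales. Cck, at -0.48 ± 0.11 as deposited for BLA minus CA1 without them, lost its call at -0.19 after quantile normalization (adjusted p = 0.111), as did Sst for BLA minus CA3, at 0.15 ± 0.11 as deposited (adjusted p = 0.195). Calb2 was further apart without them, at 2.93 ± 0.14 for BLA minus CRTX, and Sst, Vip and Pvalb still passed against CRTX and CA1. Members called without these arrays were 6 of 9 for BLA minus CRTX, beside 50.3% of all probe sets, and 5 of 9 for BLA minus CA1, beside 52.6%. Area is confounded with RNA preparation batch, since BLA and CRTX form 1 preparation batch and CA1 and CA3 another. Only BLA and CRTX had arrays scanned on the same day. Every other difference between areas, CA3 minus CA1 included, cannot be told apart from scan day.

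**Figure D2:**
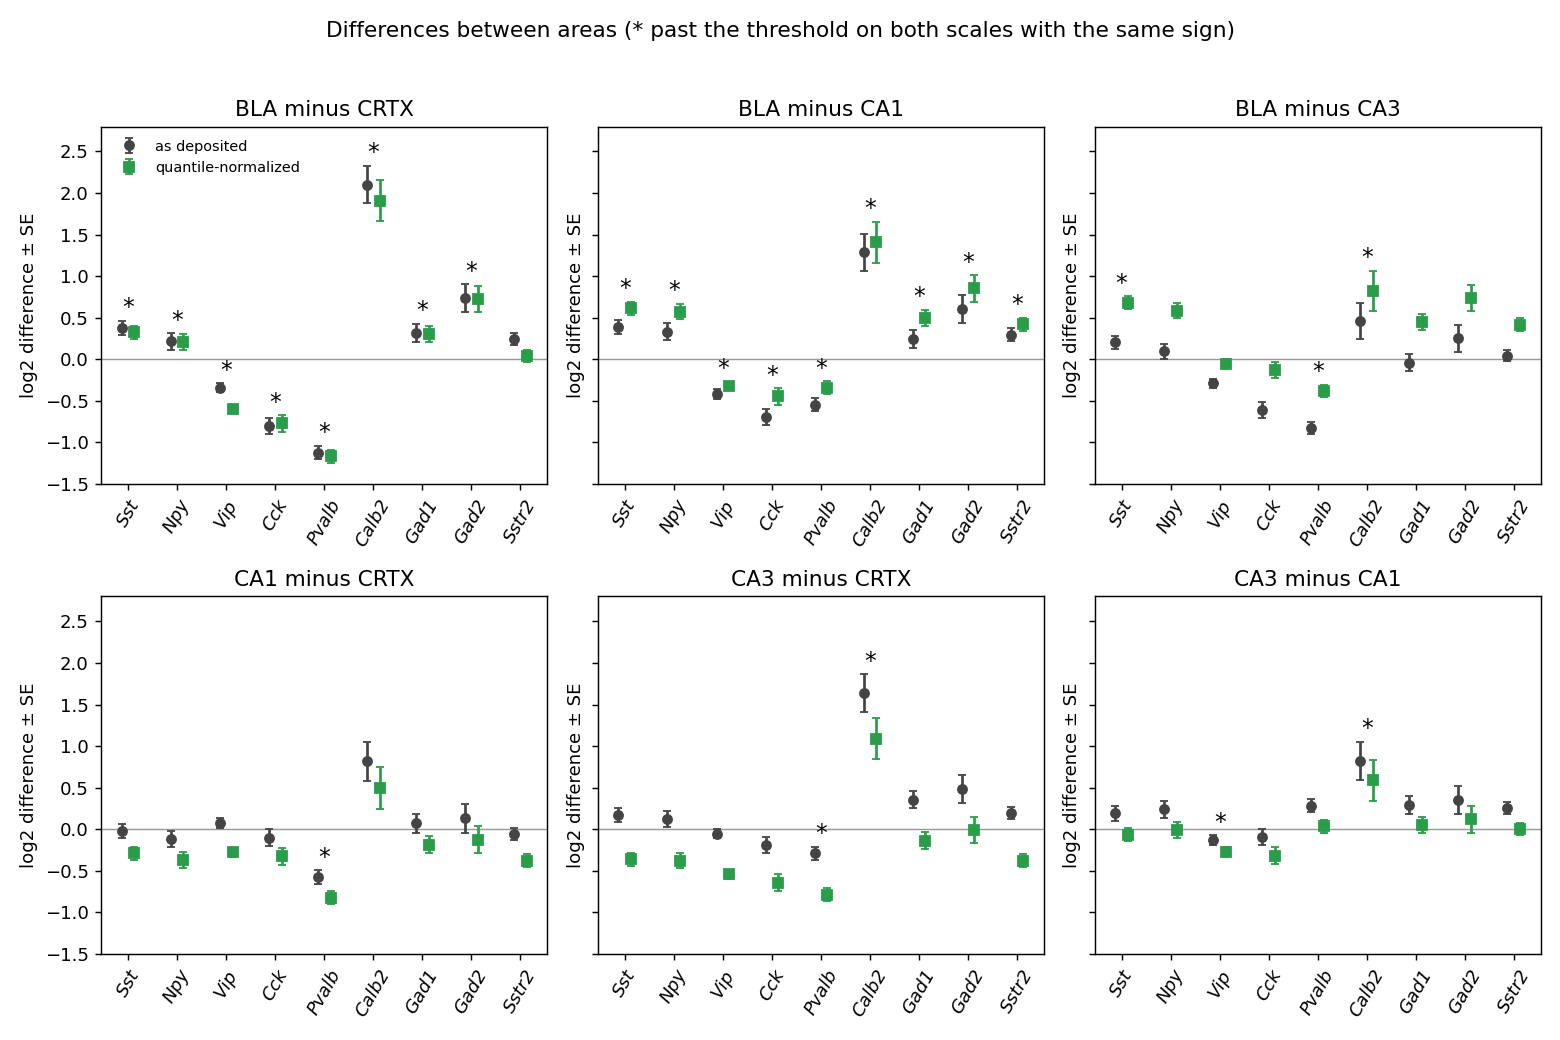
Log2 differences between areas for each gene with the fit's SE (vertical axis), as deposited (circles) and after quantile normalization of all arrays (squares). An asterisk marks the genes past the threshold on both scales: 8 for BLA minus CRTX, 9 for BLA minus CA1, 3 for BLA minus CA3, 1 for CA1 minus CRTX, 2 for CA3 minus CRTX and 2 for CA3 minus CA1.

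Other genes of these cells were read from lists chosen by function. Of 24 further interneuron peptides and markers, 12 were higher and 6 lower in BLA than in CRTX (median log2 difference 0.30, against 0.18 over all probe sets). Over all probe sets, 36.6% were called higher and 17.1% lower in this comparison, which is also the background of the other lists. Tac1, the substance P precursor and also a striatal gene, led at 2.25 ± 0.29, with Calb1 (calbindin) at 1.59 ± 0.11 and Tac3 (neurokinin B) at 1.51 ± 0.065. On the lower side stood Kcns3, a potassium channel subunit of parvalbumin cells, at -2.24 ± 0.041, and Syt2, the calcium sensor of parvalbumin terminals, at -1.51 ± 0.14. These have the sign of Pvalb itself. Of 4 genes of GABA transport and breakdown, only the vesicular transporter Slc32a1 passed, at 0.46 ± 0.15. Slc32a1 too was above in each of the 6 BLA arrays rich in striatal transcripts, and within BLA it correlated at r = 0.987 with both Gad1 and Gad2 (12 arrays). Of the other genes named in this paragraph, Tac1 and Syt2 also lay above the other BLA arrays in all 6, and Kcns3, Nr2f2 and Sstr1 below. Over all probe sets, 3.37% lay above and 1.72% below. The differences of the list genes without these arrays were not tested. Of 10 interneuron transcription factors 5 were higher and 2 lower, with Nr2f2 at 2.03 ± 0.12 and Satb1 at -1.03 ± 0.13. Of 9 peptide receptors 1 was higher and 4 were lower: Npy2r at 0.88 ± 0.14, Sstr1 at -1.14 ± 0.15, Cckbr at -0.51 ± 0.11, Sstr4 at -0.43 ± 0.082 and Npy1r at -0.37 ± 0.057. The main cholecystokinin receptor gene of the brain, Cckbr, was thus lower in BLA in the same comparison as Cck.

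Against CRTX, both hippocampal areas also had lower Syt2, at -1.82 ± 0.14 in CA3 and -1.81 ± 0.14 in CA1, beside their lower Pvalb. They had lower Cckbr, at -0.75 ± 0.11 in CA3 and -0.50 ± 0.11 in CA1, and lower Sstr1, at -0.66 ± 0.15 and -0.74 ± 0.16. Npy2r, a presynaptic NPY receptor of hippocampal neurons, was higher, at 1.59 ± 0.14 in CA3 and 1.22 ± 0.15 in CA1. Between the hippocampal areas, CA3 exceeded CA1 in Calb1 by 0.85 ± 0.11, in Prox1, also a granule cell factor, by 1.22 ± 0.17 and in Tac3 by 0.69 ± 0.065. The median over all probe sets was 0.21 in that comparison. The mean of 5 dentate granule cell genes, a list that holds Calb1 and Prox1, ran from 8.02 to 9.05 in CA3 and from 7.11 to 8.50 in CA1 as deposited. Its part in these differences was not tested.

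Within BLA, Gad2, Calb2, Gad1 and Npy varied more between dyad groups than between cage mates of the 2 lineages. Gad2 had log2 signals of 11.00, 11.21 and 9.62 in St-Vin, 11.09, 11.27 and 9.71 in St-Con, 11.31, 10.07 and 10.06 in NSt-Vin, and 11.18, 10.18 and 9.67 in NSt-Con. The arrays of dyad groups 4, 5 and 1 were the high ones in both lineages, and no array of groups 6, 2 and 3 came near them. Calb2 had 6.77, 7.64 and 8.97 in St-Vin, 6.57, 7.52 and 8.59 in St-Con, 7.32, 8.50 and 8.84 in NSt-Vin, and 6.74, 7.80 and 9.44 in NSt-Con, low where Gad2 was high. In the same 6 arrays, Gad1 (10.31 to 10.62) and Npy (10.19 to 10.39) lay above the other 6 (Gad1 9.56 to 10.00, Npy 9.47 to 9.83), and Cck, Vip and Sstr2 lay below them. Sst and Pvalb overlapped. Over all probe sets, 3.37% lay above and 1.72% below in all 6 of these arrays. The mean log2 signal of 13 markers of striatal medium spiny neurons, which make GABA with GAD65 and GAD67, was 9.39 to 9.83 in these 6 arrays and 7.51 to 8.12 in the other 6. Of the 13 striatal genes, 12 were above in every one of the 6 arrays, which are also the BLA arrays above the area mean of this list, so the count describes how they were picked. The part of striatal tissue in the members' values was not tested beyond the covariate fit given next.

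Cage mates differed less than dyad groups did in these 4 genes. Dyad group means spanned 1.58 for Gad2, 2.47 for Calb2, 1.03 for Gad1 and 0.72 for Npy in BLA, while the largest Vin minus Con difference within a dyad group was 0.39 for Gad2, 0.70 for Calb2, 0.20 for Gad1 and 0.30 for Npy. For Sst, Pvalb and Cck the spans were closer to the pairs, with dyad means spanning 0.32, 0.47 and 0.73 and largest differences of 0.29, 0.33 and 0.56.

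**Figure D3:**
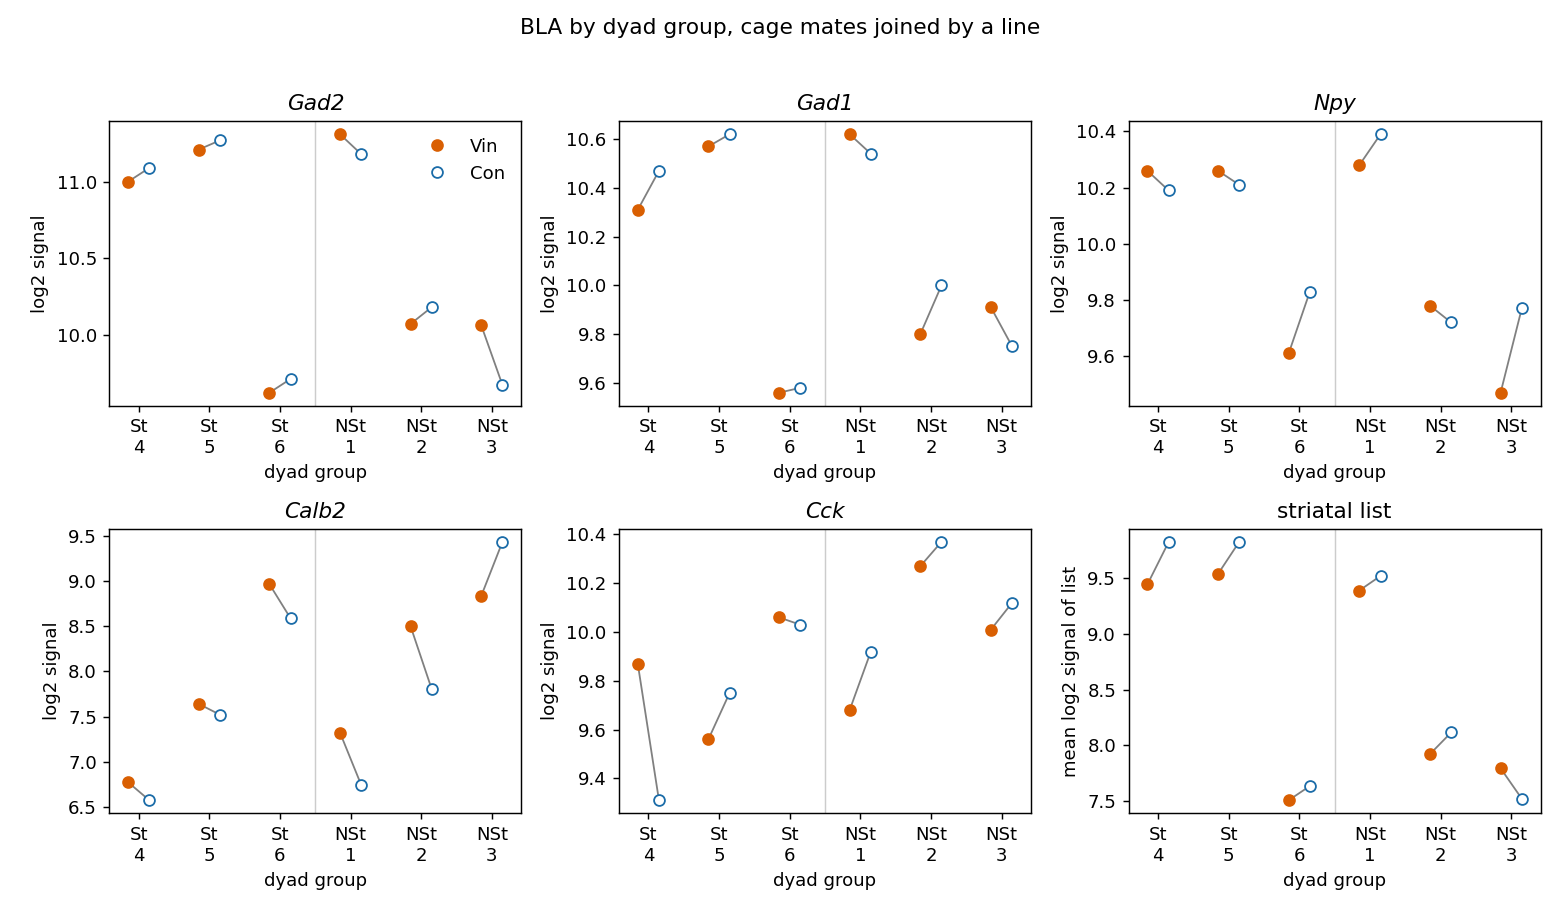
Log2 signal in BLA of 5 members and the mean of the 13 striatal genes (vertical axes) by dyad group, St groups 4 to 6 left of NSt groups 1 to 3, with Vin left of Con and a line joining cage mates. Gad2, Gad1, Npy and the striatal list are high in dyad groups 4, 5 and 1, where Calb2 and Cck are low.

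No member passed in any of the 7 lineage and stress comparisons of BLA, where limma called 0 of 27342 probe sets (0%). At an unadjusted p under 0.05, the stress average (St minus NSt, mean of both lineages) held 1 member and 4.13% of all probe sets, and the lineage average (Vin minus Con, mean of both stress conditions) held 0 members and 3.6%. For Vin minus Con it held no member, beside 2.58% in stressed and 2.09% in non-stressed rats. For St minus NSt it held Cck in Con, at -0.44 ± 0.20 beside 3.1% of all probe sets, and Pvalb in Vin, at -0.31 ± 0.12 beside 2.02%, and the interaction held no member, beside 1.21%. The member of the stress average was Pvalb, with 8.60, 8.62 and 8.89 in St-Vin, 8.79, 8.81 and 8.59 in St-Con, 9.04, 9.15 and 8.84 in NSt-Vin and 8.71, 9.18 and 8.98 in NSt-Con. Its stress average was -0.27 ± 0.088 (adjusted p = 0.996), and the St and NSt arrays overlapped. Gad2 had a stress average of 0.24 ± 0.38 (adjusted p = 0.996). With the striatal list as a covariate it was -0.19 ± 0.054 (adjusted p = 0.605), so its sign turned and it was not called. Calb2 had a lineage average of 0.23 ± 0.51 and a stress average of -0.43 ± 0.51, the widest errors of the panel.

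In CA1, Sst, Npy, Cck and Sstr2 varied together across arrays. Sst had log2 signals of 9.47, 9.44 and 8.86 in St-Vin, 9.06 and 9.06 in St-Con, 9.16, 8.91 and 8.39 in NSt-Vin, and 8.98, 8.84 and 8.04 in NSt-Con. Npy had 10.31, 10.26 and 9.78 in St-Vin, 9.73 and 9.70 in St-Con, 9.75, 9.66 and 8.98 in NSt-Vin, and 9.63, 9.48 and 8.80 in NSt-Con. For Npy, each stressed array lay above each non-stressed array of its own lineage. For Sst this held in Con only, since the third St-Vin array (8.86) was below 2 NSt-Vin arrays. The share of all probe sets without such overlap was not counted. Cck had 11.19, 11.09 and 10.76 in St-Vin, 10.65 and 10.65 in St-Con, 10.76, 10.62 and 9.91 in NSt-Vin, and 10.59, 10.45 and 10.00 in NSt-Con.

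The averages over lineages followed these values, and none passed. St minus NSt was 0.53 ± 0.18 for Npy (adjusted p = 0.202), 0.44 ± 0.16 for Cck (adjusted p = 0.216), 0.44 ± 0.20 for Sst (adjusted p = 0.291) and 0.25 ± 0.14 for Sstr2 (adjusted p = 0.400). Calb2 and both GABA enzymes had the opposite sign, with -0.35 ± 0.10 for Calb2 (adjusted p = 0.159), -0.21 ± 0.066 for Gad2 (adjusted p = 0.179) and -0.14 ± 0.055 for Gad1 (adjusted p = 0.230). Limma called 0 of 27342 probe sets in this comparison (0%). At an unadjusted p under 0.05 it held 6 members (all named here but Sstr2), beside 16.9% of all probe sets. Pvalb (0.090 ± 0.16) and Vip (-0.018 ± 0.092) showed little difference relative to their errors.

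In St-Vin against NSt-Vin, 138 probe sets passed (0.505%) and no member did. Gad1 had 9.83, 9.67 and 9.79 in St-Vin and 9.98, 10.06 and 10.12 in NSt-Vin, a difference of -0.29 ± 0.073 (adjusted p = 0.0929). Its groups did not overlap. Gad2, with 9.75, 9.67 and 9.90 in St-Vin and 9.96, 10.09 and 10.14 in NSt-Vin, differed by -0.29 ± 0.089 (adjusted p = 0.134), again without overlap. How many of all probe sets lacked overlap between these groups was not counted. Npy differed by 0.65 ± 0.24 (adjusted p = 0.193). At an unadjusted p under 0.05 this comparison held 5 members (Gad1, Gad2, Npy, Cck and Calb2), beside 19.3% of all probe sets. With all 48 arrays in the fit Gad1 passed at the same difference, beside 2.75% of all probe sets. The CA1 array added there equals the mean of its group and brings no spread of its own, and the SE was 0.068. With 1 fit of all areas Npy passed here, beside 5.84%, and Npy and Sst passed in the stress average, beside 4.08%.

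For Sst, Npy and Cck, the extreme values of CA1 came from few arrays. In CA1 both arrays of dyad group 3 (NSt-Vin 3 and NSt-Con 3) were the lowest of the area in Sst, Npy, Cck, Pvalb, Sstr2 and Vip. Over all probe sets, both arrays were below every other CA1 array in 7.91% and above in 6%. Without both arrays, a setting chosen after seeing the data, the stress average was 0.29 ± 0.10 for Npy, 0.23 ± 0.085 for Cck and 0.19 ± 0.12 for Sst. Limma then called 0 of 27342 probe sets. Both arrays are NSt and the lowest in these genes, so the smaller differences follow from the pick. In the arrays of dyad group 3 the list for CA3 and CA2 pyramidal cells lay 0.44 (Vin) and 0.58 (Con) above the CA1 mean. Of its 10 genes, 4 were above every other CA1 array, beside 6% of all probe sets. The CA1 pyramidal list was at -0.30 and -0.41. The choroid plexus list of NSt-Con 3 was 2.26 above the mean and its leptomeningeal list 0.61, while NSt-Vin 3 had the dentate granule cell list at 0.83. St-Vin 1 and 2, the highest arrays of the area in Sst, Npy and Cck, had the CA3 and CA2 list at -0.60 and -0.45, the dentate list at -0.49 and -0.55 and the oligodendrocyte list at 0.31 and 0.40. In both, 10 of 13 oligodendrocyte genes were above every other CA1 array, as were 6.43% of all probe sets. The part of these tissue differences in the members' values was not tested. Scan day adds to this, since the St-Vin arrays of CA1 were scanned on a day shared with no other CA1 array used here, and their differences from the other groups cannot be told apart from it.

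Vin was above Con for Sst, Npy, Pvalb and Sstr2 in all 5 cage-mate pairs of CA1, as were 1415 of 27342 probe sets (5.18%). The lineage average without pairing was 0.28 ± 0.18 for Npy (adjusted p = 0.994) and 0.20 ± 0.20 for Sst (adjusted p = 0.994), and limma called 0 of 27342 probe sets (0%), with 4.26% and 0 members at an unadjusted p under 0.05. With dyad group as a block, the lineage average of Npy was 0.36 ± 0.043 (adjusted p = 0.0161), and 1 member passed beside 0.41% of all probe sets. In stressed rats the blocked difference was 0.57 ± 0.066 for Npy (adjusted p = 0.00619), 0.49 ± 0.084 for Cck (adjusted p = 0.0342) and 0.40 ± 0.081 for Sst (adjusted p = 0.0620), and 2 members passed beside 1.27% of all probe sets. It rests on 2 stressed pairs. With dyad group as a random block, limma called 0 of 27342 probe sets in both comparisons, and Npy was at 0.30 ± 0.14 in the lineage average (adjusted p = 0.656) and 0.45 ± 0.21 in stressed rats (adjusted p = 0.595). In non-stressed rats, whose arrays share 1 scan day, the blocked difference was 0.16 ± 0.054 for Npy and 0.20 ± 0.066 for Sst (adjusted p = 0.551 and 0.548), and limma with the block called no probe set. The blocked difference between the stress conditions was 0.41 ± 0.086 for Npy (adjusted p = 0.0971).

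**Figure D4:**
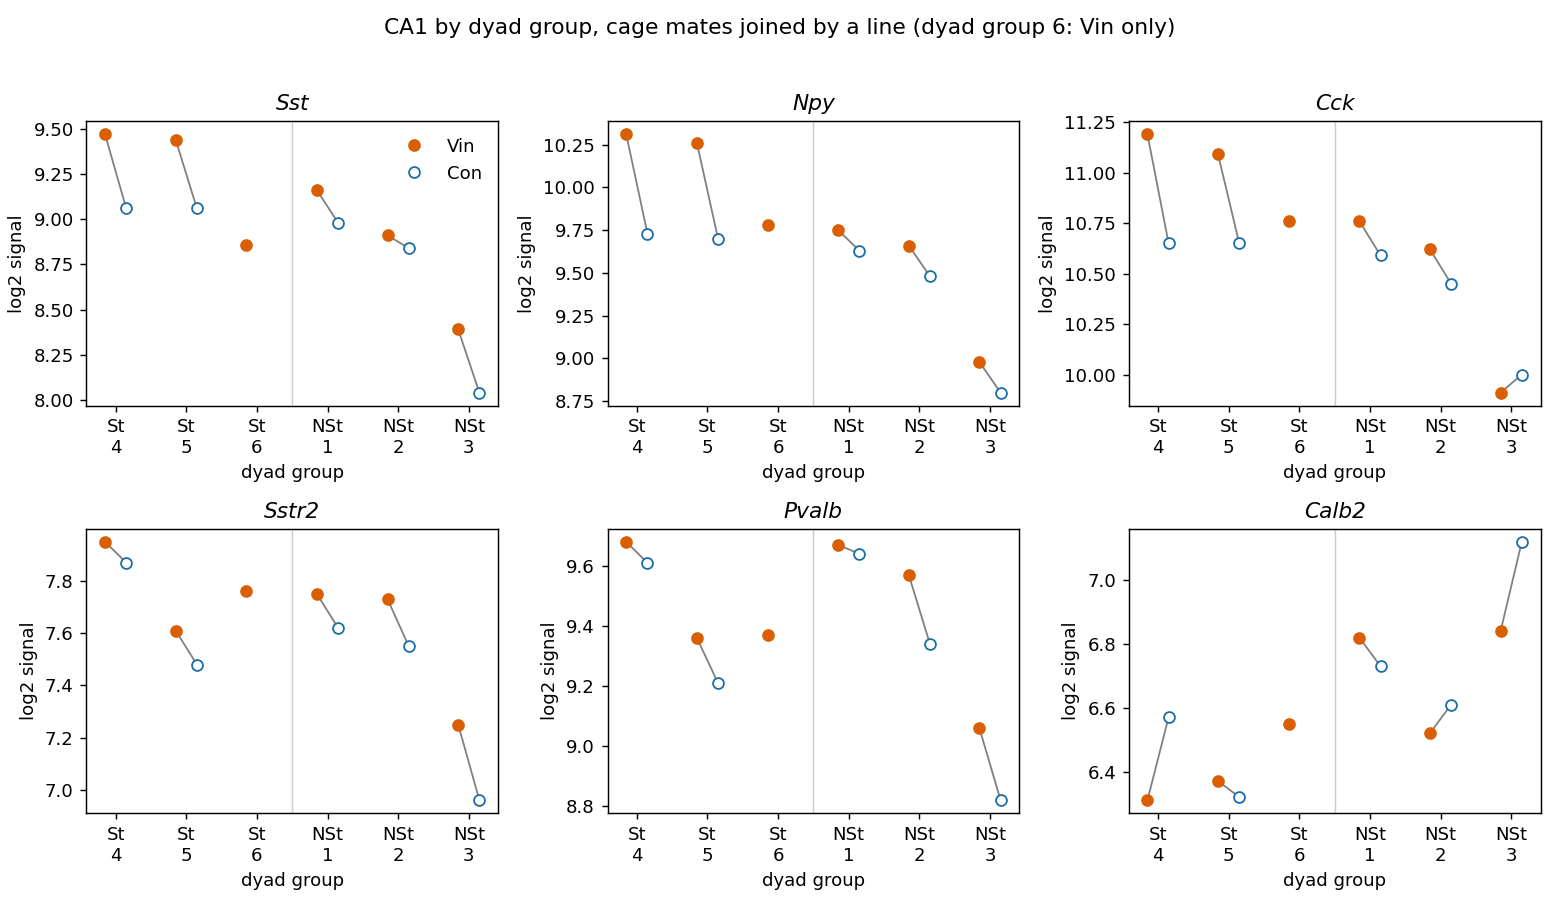
Log2 signal in CA1 of 6 members (vertical axes) by dyad group, St groups 4 to 6 left of NSt groups 1 to 3, with Vin left of Con, a line joining cage mates and Vin only in dyad group 6. Dyad group 3 is lowest in Sst, Npy, Cck, Sstr2 and Pvalb in both lineages, and Vin lies above Con in all 5 pairs for Sst, Npy, Pvalb and Sstr2.

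In motor cortex the members had an SD over the 11 arrays between 0.071 (Vip) and 0.15 (Cck). Limma called 174 probe sets in St-Con against NSt-Con (0.636%, of which 0.278% higher and 0.358% lower), with no member among them and none among the 18.3% at an unadjusted p under 0.05. The count of probe sets was 0 with scan day as a block, 19 (0.0695%) without choroid-rich arrays and 1027 (3.76%) with all 48 arrays, with no member in any of them. It called 2 in the stress average (0.00731%), again with no member. Gad2 had 9.84, 9.73 and 9.54 in St-Vin, 9.64, 9.76 and 9.81 in St-Con, 9.95 and 9.88 in NSt-Vin, and 9.81, 9.95 and 9.76 in NSt-Con. Its stress average was -0.16 ± 0.061 (adjusted p = 0.273), and that of Gad1 was -0.13 ± 0.060 (adjusted p = 0.341). They were the 2 members at an unadjusted p under 0.05, beside 14.1% of all probe sets. In Vin alone, Gad2 differed by -0.21 ± 0.090 and Pvalb by -0.19 ± 0.075 (adjusted p = 0.998), the 2 members at that threshold beside 3.13%.

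Pvalb in CRTX was 9.78, 9.94 and 9.78 in St-Vin and 10.02, 9.91 and 10.08 in St-Con, a difference of -0.17 ± 0.067 (adjusted p = 0.826), and it was the 1 member at an unadjusted p under 0.05, beside 6.04% of all probe sets. The groups overlapped in 1 array each. Sstr2 was 7.76 and 7.77 in NSt-Vin and 7.62, 7.60 and 7.39 in NSt-Con, a difference of 0.23 ± 0.094 (adjusted p = 0.852), again the 1 member at that threshold, beside 5.68%. In stressed rats the groups overlapped, with 7.64, 7.75 and 7.44 in St-Vin and 7.77, 7.72 and 7.63 in St-Con, and the interaction was -0.33 ± 0.13 (adjusted p = 0.842), the 1 member at that threshold beside 5.61%. Vip was lower in Vin in all 5 pairs, by 0.01 to 0.12, as were 3.06% of all probe sets, and its lineage average was -0.083 ± 0.044 (adjusted p = 0.875). All St arrays were scanned on the second of 2 days, together with 1 NSt-Vin array, so stress and scan day overlap in CRTX. With scan day as a block, the only member at an unadjusted p under 0.05 in any of the comparisons was Pvalb in stressed rats, at the same difference.

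In CA3 without the block, no member reached an unadjusted p under 0.05 in any of the 7 comparisons, and limma called 0 of 27342 probe sets in each (0%). That threshold held 10.6% of all probe sets in the CA3 stress average and 3.44% in the lineage average. With dyad group as a block, Cck reached it for Vin minus Con in stressed rats, at -0.13 ± 0.054 (adjusted p = 0.880). Its blocked lineage average did too, at -0.088 ± 0.038 (adjusted p = 0.957). Limma with the block called 0 probe sets, and the unadjusted share of all probe sets was not counted. Gad2 had 10.24, 10.38 and 9.97 in St-Vin, 10.34, 10.25 and 10.12 in St-Con, 10.53, 10.32 and 10.25 in NSt-Vin and 10.19, 10.56 and 10.20 in NSt-Con, with a stress average of -0.13 ± 0.087. Npy had a stress average of -0.085 ± 0.056 and Sst of -0.028 ± 0.057 in CA3, against 0.53 and 0.44 in CA1 of the same pools without St-Con 3. Whether a stress average differed between areas was tested over all 4.

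**Figure D5:**
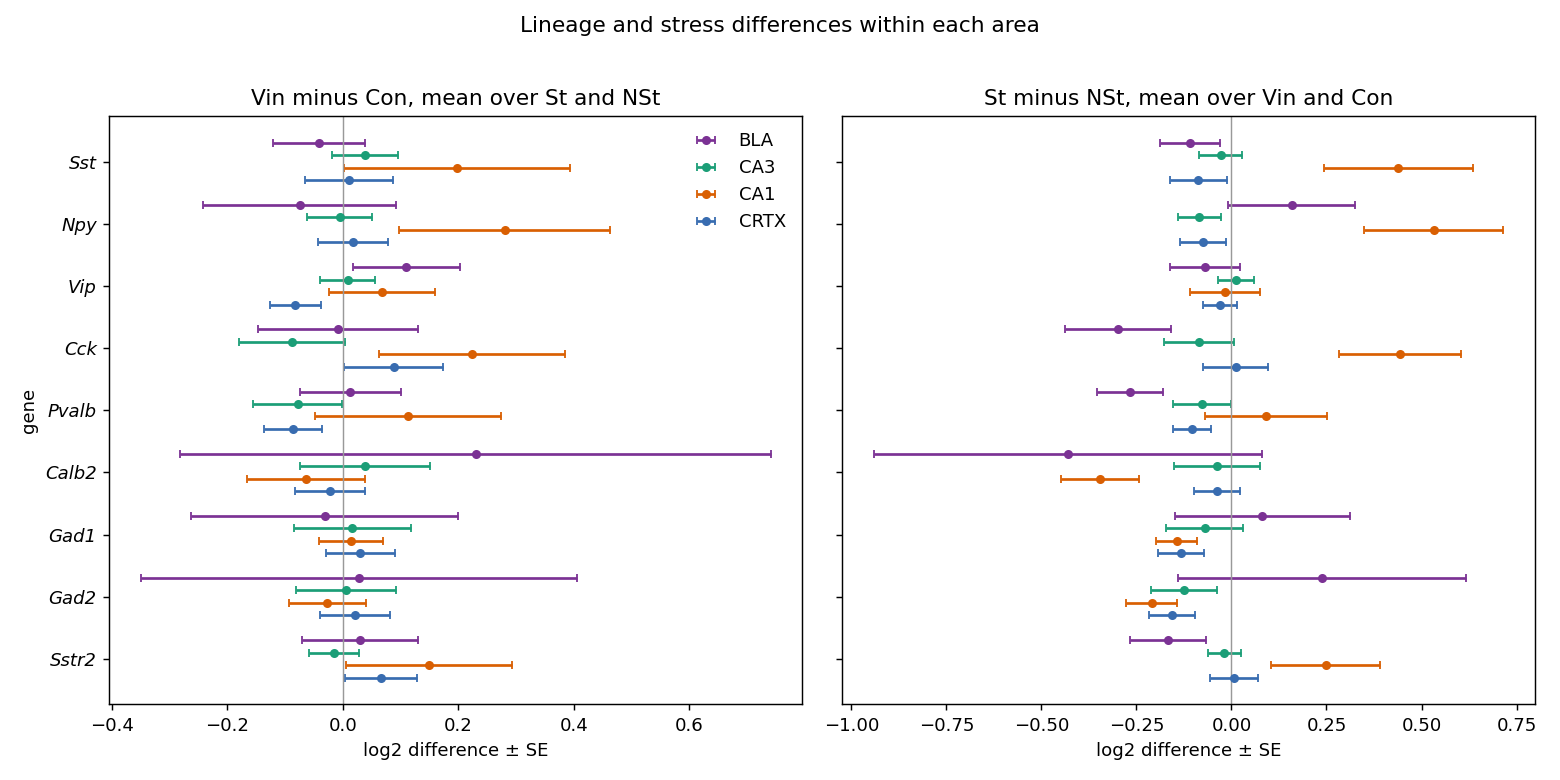
Log2 difference with the fit's SE (horizontal axes, scaled apart) for Vin minus Con (left) and St minus NSt (right) of each gene in each area. In the stress panel, CA1 holds the values farthest above 0, for Npy (0.53), Cck (0.44) and Sst (0.44), and BLA has the widest error, for Calb2.

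The F test over areas asked whether the effect of stress or of lineage on a gene differed between them. For the stress average, 248 of 27342 probe sets passed (0.907%) and 0 members did, with 3 members and 17.6% of all probe sets at an unadjusted p under 0.05. Those 3 were Cck (adjusted p = 0.117), Sst (adjusted p = 0.147) and Npy (adjusted p = 0.17). In that fit, the stress average of Cck was -0.30 in BLA, -0.085 in CA3, 0.45 in CA1 and 0.0071 in CRTX. For the lineage average, limma called 0 of 27342 probe sets (0%), and 0 members and 4.26% of all probe sets had an unadjusted p under 0.05. Over the mean of the 4 areas, 10 pools were measured in all. Without the block, no member passed or had an unadjusted p under 0.05 in any comparison, and limma called 0 of 27342 probe sets (0%). The unadjusted share of all probe sets was 2.97% for its lineage average and 8.27% for its stress average. Npy there differed by 0.16 ± 0.11 with stress and by 0.031 ± 0.11 with lineage. With dyad group as a block, no member or probe set passed. Unadjusted p under 0.05 then held Npy for Vin minus Con in stressed rats (0.21 ± 0.040, adjusted p = 0.262) and in the lineage average (0.10 ± 0.028, adjusted p = 0.455). It also held Cck in stressed rats, Gad1, Gad2 and Sst in non-stressed rats, Sst in the lineage average, and Npy, Cck, Gad1 and Gad2 in the interaction. The share of all probe sets was not counted. Over all 22 cage-mate pairs, Vin was the higher array in 15 for Npy, 14 for Sstr2, 13 each for Sst, Vip and Calb2, 12 for Pvalb, 11 for Cck and 10 each for Gad1 and Gad2, and the pairs of an area share animals with those of the others.

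Of the lists chosen by function, no gene among 24 other interneuron markers, 10 interneuron transcription factors, 9 peptide receptors and 4 genes of GABA transport and breakdown passed in a lineage or stress comparison of any area. In the CA1 stress average, the 4 genes of GABA transport and breakdown had a median of -0.090 and 0 of 4 were above 0, and the 24 other markers had a median of -0.049 with 7 above 0, beside -0.013 over all probe sets.

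Across the 46 arrays, after subtraction of the area means, the members fell into a few patterns. Gad1 and Gad2 correlated at r = 0.952, and the vesicular GABA transporter Slc32a1 followed at 0.909 with Gad1 and 0.944 with Gad2. Next came Cap1 for Gad1 (0.901) and Rps6ka5 for Gad2 (0.939). Sst and Npy correlated at 0.807, while Calb2 and Gad2 stood at -0.736. The genes most like Sst were Cacng3 (0.911), Grik3 (0.889) and Etv5 (0.888), and those most like Npy were Prkar2b (0.916), Cx3cl1 (0.915) and Gnb4 (0.907). Cck was followed by Efhd2 (0.899), Galnt9 (0.888) and Synj2 (0.887). Sstr2 was followed by Doc2a (0.845), Rph3a (0.807) and Sncb (0.801). Calb2 was followed by Nptxr (0.858), Itih3 (0.840) and Tubb2b (0.826). Vip and Pvalb had weaker matches, Adcy8 (0.743), Traf3 (0.732) and Camk2d (0.725) for Vip and Plekho1 (0.735), Ntm (0.715) and Cdyl2 (0.712) for Pvalb. The arrays share their pools and their tissue mix, and the likeness often came from the areas with the widest spread. Sst and Cacng3 stood at 0.974 within CA1 and 0.609 within BLA, and Npy and Prkar2b at 0.969 within CA1, 0.929 within BLA and 0.201 within CA3.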

How the data were processed

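RNA from 48 tissue pools was hybridised to 1-colour whole-transcript Affymetrix arrays. The deposited values are log2 signals per probe set. Partek and RMA (a method of background correction, normalization and probe summary) are the tools listed per the submitters' processing notes, with versions and genome build not given in the sources used here. Precision is limited by the number of arrays, not by a read depth. The platform annotation gives 15097 of the 27342 probe sets 1 gene symbol, 323 several and 11922 none; only the first were named.

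In R 4.3.3, limma 3.58.1 fitted group means (lmFit, eBayes) to every probe set of the 46 arrays used, per area, on the mean of the 4 areas of 10 pools, and over all arrays for area differences and the F tests, with pool as a random block (duplicateCorrelation, statmod 1.5.0, consensus correlation 0.0487 as deposited and 0.0251 after quantile normalization). Tests are two-sided, adjusted p-values are Benjamini-Hochberg over all probe sets, and the threshold is 0.05. SE is the fit's. The replicate is the pool, each of other rats, and p-values refer to the spread among pools. The fits were tested on simulated data.

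Same-numbered Vin and Con arrays come from cage mates, per the labels, so dyad group pairs them. Their deviations from the group means correlated over 0.1 in 6 of 6 pairs of BLA, 3 of 5 of CRTX, 5 of 5 of CA1 and 5 of 6 of CA3, with medians of 0.508, 0.22, 0.279 and 0.31. The fits were made without the block. Blocked values stand beside the results whose call they change, and beside some others.

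The members and gene lists, and the decision to leave out 2 arrays, were made with earlier results of these data known. Genes named are all 9 members, up to 6 past the threshold from each of the function lists, and the 3 genes with the highest correlation with each member. Likeness is Pearson's r of deviations from area means. Marker genes of other tissue are given as list means. The alternatives tried were all 48 arrays, a filter at the 30th percentile of mean signal, other normalizations and spread settings, blocks for dyad group and scan day, a striatal covariate, arrays left out singly, and arrays left out for tissue content.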

Additional observations from a re-analysis of the deposited data

Results flagged for a closer look

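Npy was picked out because its stress difference in the Con lineage ran opposite ways in 2 areas without overlap of the groups. The lack of overlap is thus the rule of the pick, and how many of all probe sets meet it was not counted. In CA1 it had log2 signals of 9.73 and 9.70 in St-Con and 9.63, 9.48 and 8.80 in NSt-Con, a difference of 0.41, and in CRTX 9.69, 9.73 and 9.69 in St-Con and 9.87, 9.80 and 9.76 in NSt-Con, a difference of -0.11. NSt-Con 3 (8.80), the lowest CA1 array in Npy, belongs to dyad group 3 and was rich in choroid plexus transcripts. Without that dyad group, left out after seeing the data, the CA1 difference was 0.16, and a smaller difference follows from that pick. The difference between the areas was not tested in the Con lineage alone. Over both lineages the F test gave Npy an adjusted p of 0.17. In CRTX, scan day and stress cannot be told apart in this lineage.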

How the results depend on the processing

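Leaving out or adding arrays, changing the block and using a single scale in place of both moved several counts of members called. Of 813 recomputed counts over 41 comparisons, 779 stayed within 1.5 times the count reported and 34 did not. Of 987 recomputed differences of 48 named results, 917 kept direction and call, 62 lost the call, 4 gained it and 4 changed sign. In CA1, where no member was called, dyad group as a block (the replicate block) gave 2 for Vin minus Con in stressed rats and 1 for the lineage average; all 48 arrays gave 1 and 1 fit of all areas gave 1 for St minus NSt in Vin; and 1 fit of all areas gave 2 for the stress average. The block changed no other call, and dyad group as a random block called 0 members and 0 probe sets in both. Without the BLA arrays rich in striatal transcripts, a setting chosen after seeing the data, BLA minus CA1 called 5 and CA1 minus CRTX 2, and the sign turned for Npy (-0.055) and Gad1 (-0.10) in BLA minus CRTX and for Gad1 (-0.17) and Gad2 (-0.098) in BLA minus CA1. The NSt-Con arrays alone, with fewer samples, called 4 for BLA minus CRTX, 4 for BLA minus CA1, 0 for BLA minus CA3, 2 for CA1 minus CRTX, 0 for CA3 minus CRTX and 0 for CA3 minus CA1, beside 16.3% to 31.7% of all probe sets. Values as deposited alone, a single threshold in place of 2, called 5 for BLA minus CA3, 2 for CA1 minus CRTX, 5 for CA3 minus CRTX and 7 for CA3 minus CA1, beside 87.7%, 88.6%, 95.1% and 80.2% of all probe sets, and quantile-normalized values alone called 7, 6 and 7 for the first 3 of these, beside 72.3%, 65.0% and 71.9%. Pool as a fixed block called 2 for CA1 minus CRTX. For CA3 minus CA1, the filter on low signal (which removes Vip), the trend and robust settings and leaving out choroid-rich arrays each called 1. Leaving out each pool in turn gave 7 to 8 members for BLA minus CRTX, 8 to 9 for BLA minus CA1, 1 to 3 for BLA minus CA3, 1 for CA1 minus CRTX, 2 to 3 for CA3 minus CRTX and 0 to 2 for CA3 minus CA1. BLA minus CA3 was 1 without St-Con 2, and CA3 minus CA1 was 0 without NSt-Con 2, St-Con 2, NSt-Vin 1, NSt-Vin 2 or St-Vin 1 and 1 without NSt-Con 1, St-Con 1, St-Con 3 or St-Vin 2. The lineage and stress comparisons had 0 members called when single arrays were left out. The mean over several probe sets was not run, since each member has 1. The cause of these changes was not tested.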
